A study of Ovis aries with 4 samples.

Results

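In the ovaries of aged black sheep, the transcripts of 6 genes for adhesion, polarity and signalling scaffolds carried strong peaks of N6-methyladenosine (m6A), and none of them had a peak in the young list. The genes are LRRC4C, CTNND2, TNIK, SH3KBP1, OTULIN and BVES, and they are 6 of 5261 genes with a peak at either age. A peak is a stretch of transcript that the authors found enriched in RNA pulled down with an antibody against m6A, relative to the untreated input RNA. Its fold enrichment and both of its p-values, plain and adjusted, were computed by the authors. The genes were chosen by their high fold in the aged list and their lack of a peak in the young list, so these values describe them and were not tested.

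The study compared ovarian tissue of Cele black sheep aged 5 to 6 years (aged) with that of sheep aged 1 to 2 years (young). Each age had an immunoprecipitated and an input library, 4 samples in all, and the analysis here rests on 1 list of peaks for each age. Both aged samples are labelled replicate 2 and both young samples replicate 1, so the replicate number and age cannot be told apart. The labels name no treatment or mutation, and they do not say whether a sample pooled several animals. Differences between the lists therefore had no replicate check. Neither the sequencing depth nor the input libraries were part of the data used, so how abundant each transcript was is unknown. In whole tissue, fewer cells of a type and less RNA per cell cannot be told apart. Of the marker genes of granulosa cells, FSHR and INHBB had peaks at both ages and INHBA in the young list, whereas the other 5 of 8, among them AMH, FOXL2 and CYP19A1, had none. Of theca and luteal markers, SCARB1 was in the aged list only and STAR and PTGFR in the young list only. CYP17A1 had a young peak and, by its deposited symbol, an aged one, and the other 4 of 8 had none. Of oocyte markers, NOBOX, NLRP14 and PADI6 were in the aged list only, ZP2 and FIGLA in the young list only, and NPM2 in both. The other 5 of 11 had none. Of 7 endothelial markers with a peak, 3 were in the aged list only, 2 in the young list only and 2 in both. For 7 stromal fibroblast markers the counts were 1, 4 and 2. Of 4 smooth muscle and pericyte markers, 2 were in the young list only and 2 in both. Over all genes with a peak, the shares were 26.9%, 41.3% and 31.8%.

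The methyl mark m6A is written onto adenosines of messenger RNA by a methyltransferase complex and read by proteins that act on splicing, translation and decay. It is known to be dense around stop codons and in 3' UTRs. The 6 genes have different roles at the cell surface and beneath it. LRRC4C encodes a leucine-rich repeat adhesion protein that binds netrin-G1, and CTNND2 a catenin of the p120 family that binds the tails of cadherins. TNIK encodes a kinase that binds TRAF2 and NCK and acts in JNK and WNT signalling, and SH3KBP1 an adaptor with SH3 domains that links CBL ubiquitin ligases to the endocytosis of receptors. OTULIN encodes the deubiquitinase that removes linear ubiquitin chains, and BVES a membrane protein of the Popeye family that binds cAMP and lies at tight junctions.

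Each of the 6 genes had 1 aged peak and no young peak. The background for this count is that 26.9% of all genes with a peak (1415 of 5261), and 45.9% of the genes with an aged peak, were in the aged list only. Since the choice fixed the count, nothing is read from it. Positions are those of the deposited files, counted from 1, and the sources used here do not name their genome build.

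LRRC4C had the highest fold of the 6 genes, 6.67, with a p-value of 1.48e-09 and an adjusted p of 9.77e-08. Its peak lay on the minus strand of chromosome 15 (69526208 to 69526407), was labelled 5' UTR and was 200 bases wide. It was the third highest fold of the 3656 aged peaks. CTNND2 followed with a fold of 5.75, a p-value of 9.33e-06 and an adjusted p of 4.17e-05. Its peak lay on the plus strand of chromosome 16 (62427429 to 62427629), was labelled 3' UTR and was 201 bases wide. These adhesion genes thus carried peaks labelled for opposite untranslated ends of the transcript.

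The peak of TNIK had a fold of 5.00, a p-value of 8.32e-08 and an adjusted p of 6.03e-07. It lay on the plus strand of chromosome 1 (217112006 to 217112156), was labelled 3' UTR and was 151 bases wide. SH3KBP1 had the same fold of 5.00 with a weaker p-value of 0.000589 and an adjusted p of 0.00832. Its peak on the minus strand of chromosome X (18078197 to 18081168) was the only one of the 6 labelled exon. It spanned 2972 bases of the genome for a width of 150 bases, so 2822 bases of the span were not counted as peak. Of all aged peaks, 22.5% were longer in span than in width, and of the 6 genes SH3KBP1 alone had such a peak.

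OTULIN had a fold of 4.87, a p-value of 6.17e-08 and an adjusted p of 4.68e-07. Its peak lay on the minus strand of chromosome 16 (58658890 to 58659139), was labelled 3' UTR and, at 250 bases, was the widest of the 6. BVES had the lowest fold of the 6, 4.67, with a p-value of 2.14e-09 and an adjusted p of 1.38e-07. Its peak lay on the plus strand of chromosome 8 (32224602 to 32224751), was labelled 3' UTR and was 150 bases wide.

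High folds did not go with extreme p-values in these peaks. By fold they ranked between 3 and 26 of 3656 aged peaks, within the leading 0.711% of the list. By p-value, LRRC4C ranked 890, BVES 938, OTULIN 1384, TNIK 1435, CTNND2 2402 and SH3KBP1 3187. The deposited log10 p was -8.83 for LRRC4C, -8.67 for BVES, -7.21 for OTULIN and -7.08 for TNIK, all stronger than the aged median of -6.22. It was -5.03 for CTNND2 and -3.23 for SH3KBP1, both weaker than that median. Whether depth or transcript abundance moves with this order was not tested. The ranks use the plain p, which the adjusted p did not follow throughout the list. ARVCF, with a log10 p of -8.34, had an adjusted p of 4.68e-08, lower than that of LRRC4C.

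**Figure D1:**
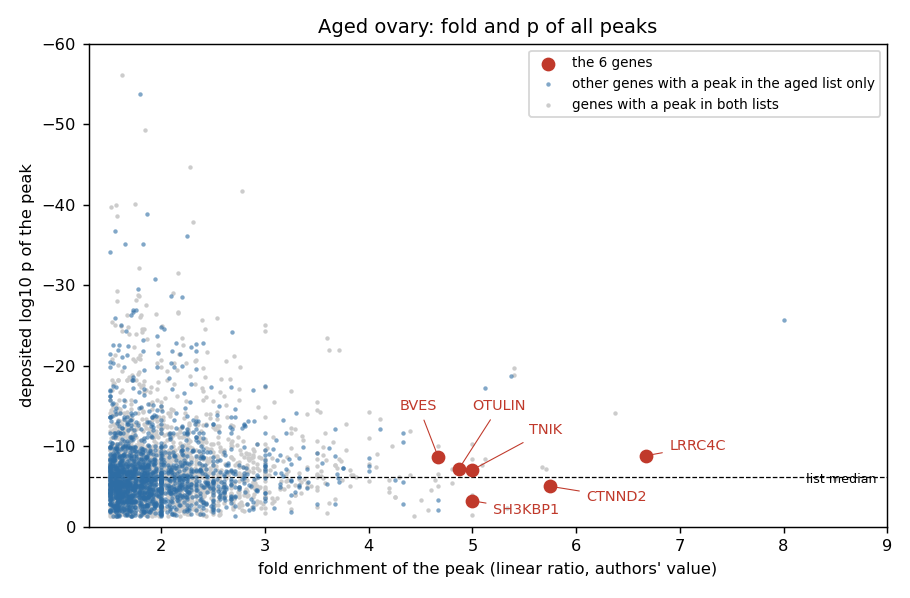
Fold enrichment (linear ratio) against the deposited log10 p for every aged peak, with more significant peaks higher up, the 6 genes in red, other genes with a peak in the aged list only in blue and genes with a peak in both lists in grey. The 6 peaks lie far to the right, at folds of 4.67 to 6.67, while their log10 p of -8.83 to -3.23 lies on both sides of the list median of -6.22 (dashed).

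A fold of at least 4.67 was reached by 31 aged peaks, 0.848% of the list, and by 36 of 4378 young peaks (0.822%). Of the 31 strong aged peaks, 11 (35.5%, Wilson 95% interval 21.1 to 53.1) lay in genes of the aged list only, and 20 lay in genes that had a young peak as well. Of the 36 strong young peaks, 19 (52.8%, 37.0 to 68.0) lay in genes of the young list only. The cut of 4.67 is the lowest fold of the genes chosen here, and their peaks are all among the 11 by that choice. The aged share was thus partly fixed beforehand. The intervals overlap and cover counting error only, and nothing is read from their overlap. An overlapping young peak was missing for 59% of all aged peaks and for 54.8% of the strong ones. The latter share also counts the peaks of the chosen genes, so nothing is read from the difference.

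The other strong aged peaks of the aged list only, LOC genes left out, were those of WDR62, C12H1orf159, ACSL5 and DEFB124. WDR62, a centrosomal gene, stood above LRRC4C with a fold of 8.00, and C12H1orf159 (5.37) and ACSL5 (5.12), which encodes a fatty acid activating enzyme, stood between CTNND2 and TNIK. Their log10 p were -25.7, -18.8 and -17.3, and all of these peaks were labelled stop codon on the plus strand. None of the 6 scaffold peaks carried that label, which 15.3% of aged peaks had. DEFB124, a defensin gene, had the same fold as BVES, 4.67, with an adjusted p of 0.10. The genes next below were DOCK3, FAM8A1, SLC10A5 and TMEM25, each with a fold of 4.33.

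By label, the 6 peaks were 4 of 3' UTR, 1 of 5' UTR and 1 of exon, where 66.4% of all aged peaks were labelled 3' UTR, 2.49% 5' UTR and 15.3% exon. They were divided evenly by strand, with CTNND2, TNIK and BVES on the plus and LRRC4C, SH3KBP1 and OTULIN on the minus strand. Their widths ran from 150 to 250 bases, with LRRC4C, TNIK, SH3KBP1 and BVES under the aged median of 201 bases, CTNND2 at it and OTULIN above it. The widest aged peak measured 1495 bases. All 6 widths were within 2 bases of a multiple of 50, as were 84.3% of all aged peaks, and 3 of the 6 were 148 to 152 bases wide, as were 31.8% of all aged peaks.

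The genes differ in length, and 4 of them are long. Lengths were taken from a gene table whose match to the build of the files is not stated, and in it 97.6% of the matched aged peaks and all 6 of these peaks fell within their gene. LRRC4C measured 1433 kb, CTNND2 1117 kb, TNIK 401 kb and SH3KBP1 332 kb, while BVES measured 54.3 kb and OTULIN 37.8 kb. The median gene of the aged list only measured 32.7 kb, and 70 of 1409 such genes (4.97%) were longer than 300 kb, against 72 of 2162 genes of the young list only (3.33%). All 6 genes thus lay above the median length, OTULIN by the smallest margin.

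The distance from the peak to the 3' end of the gene ranged widely. Only peaks within the gene ends of that gene table were counted, 2373 of the 2427 aged peaks labelled 3' UTR. The rest ran past a gene end or had no gene in the table, and exon and 5' UTR peaks were limited likewise. The TNIK peak ended 2 bases before the end of the gene, and 12 of the 2373 aged 3' UTR peaks, it included, ended under 30 bases from it. The CTNND2 peak ended 50 bases before the end, a distance of 48 to 52 bases that it shared with 413 of these peaks (17.4%). SH3KBP1 followed at 2041 bases, BVES at 3595 and OTULIN at 6563, where the median 3' UTR peak lay at 597 bases and the median exon peak at 3242. Of the 3' UTR peaks, 92.4% lay at least as near the gene end as that of OTULIN, and 83.8% as that of BVES. The LRRC4C peak lay farthest in bases, 197 kb from the 3' end and 1236 kb from the 5' end of the gene. Relative to the length of the gene, measured from its 5' end to the middle of the peak, the OTULIN peak lay at 82.3%, LRRC4C at 86.3%, BVES at 93.2%, SH3KBP1 at 98.9%, and TNIK and CTNND2 beyond it. The distance of the LRRC4C peak from the 5' end was the largest of 85 aged peaks labelled 5' UTR, whose median was 4.02 kb.

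**Figure D2:**
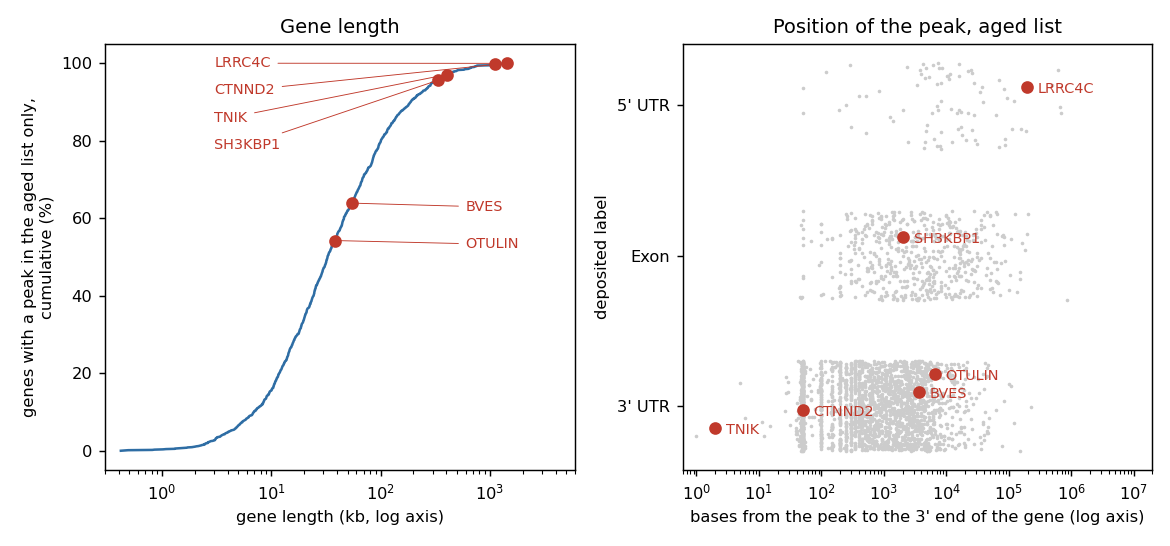
Left, cumulative share of the genes with a peak in the aged list only by gene length (kb, log axis), with the 6 genes in red; right, distance in bases (log axis) from each aged peak to the 3' end of its gene by deposited label, with the other aged peaks in grey and spread vertically at random within a label. LRRC4C, CTNND2, TNIK and SH3KBP1 lie at the upper end of the lengths, and TNIK at 2 bases and CTNND2 at 50 bases lie nearest the gene end.

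No young peak was found near any of the 6 peaks. The nearest young peak on the chromosome, on either strand, lay 473 kb from the CTNND2 peak, in ROPN1L, and 511 kb from the TNIK peak, in PLD1. For SH3KBP1 it lay at 526 kb, in EIF1AX, for BVES at 1550 kb, in CRYBG1, for OTULIN at 1812 kb, in RETREG1, and for LRRC4C at 3367 kb, in ALKBH3. The median distance over all aged peaks in genes of the aged list only was 104 kb, with quartiles of 34.3 and 316 kb. Each of the 6 distances exceeded the upper quartile, and that of LRRC4C exceeded the distances of 99.3% of these peaks. The length of a gene bears on such distances, and its part was not tested.

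**Figure D3:**
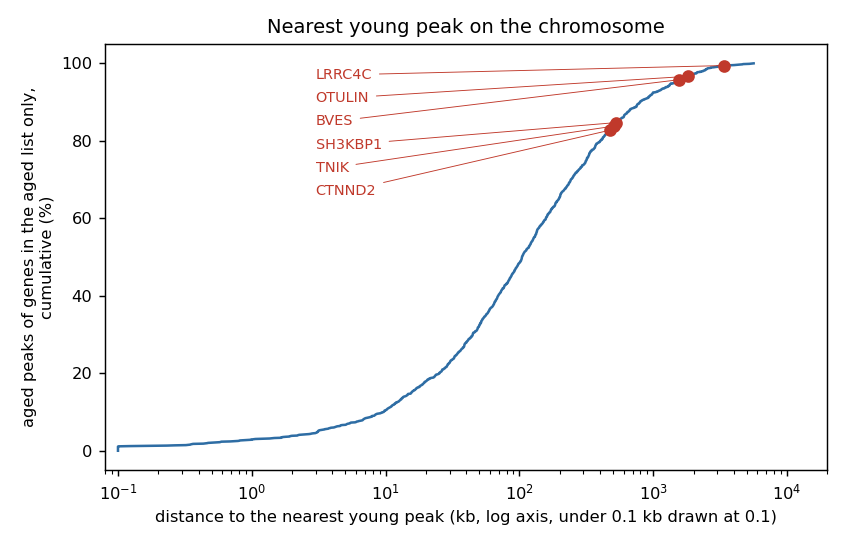
Cumulative share of the aged peaks in genes of the aged list only by distance to the nearest young peak on the same chromosome (kb, log axis), with the 6 genes in red. The 6 peaks lie between 473 and 3367 kb, to the right of the median of 104 kb.

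Some neighbouring genes had peaks as well. Of the 24 protein-coding genes that lie first and second on each side of the 6 genes in the gene table, 3 had an aged peak (12.5%) and 2 a young one (8.33%), where 14.4% and 17.9% of all 21300 protein-coding genes of the table had one. OTULINL, the paralogue that adjoins OTULIN, had an aged peak with a fold of 1.55, and TRIO, next in order, one of 1.67, and neither had a young peak. PLD1 beside TNIK had a young peak of 1.90, and IFTAP beside LRRC4C had peaks of 1.68 in the aged and 1.60 in the young list. POPDC3, the Popeye family gene that adjoins BVES, had a peak in neither.

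Genes of the families and pathways of the 6 genes, called relatives and partners here, were spread over both lists of peaks. In 6 groups with 176 further gene names, some of which repeat a gene, 59 genes had a peak. Of these, 18 were in the aged list only (30.5%), 24 in the young list only (40.7%) and 17 in both (28.8%). The shares over all genes with a peak were 26.9%, 41.3% and 31.8%. No aged peak of these relatives reached a fold of 4.67, the lowest of the 6 genes. Only 0.848% of all aged peaks did, so nothing is read from this. AFDN came nearest with an aged peak of 4.50, and in the young list PARD3 reached 4.93. Folds rank peaks within each list only, so values given for both ages do not measure a change. FLRT2, LRFN3, AFDN, CDH2, MAP4K4, MAPK8, GRB2 and CLDN3 had a higher fold in the aged list. Each of them had its stronger log10 p in the young list.

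**Figure D4:**
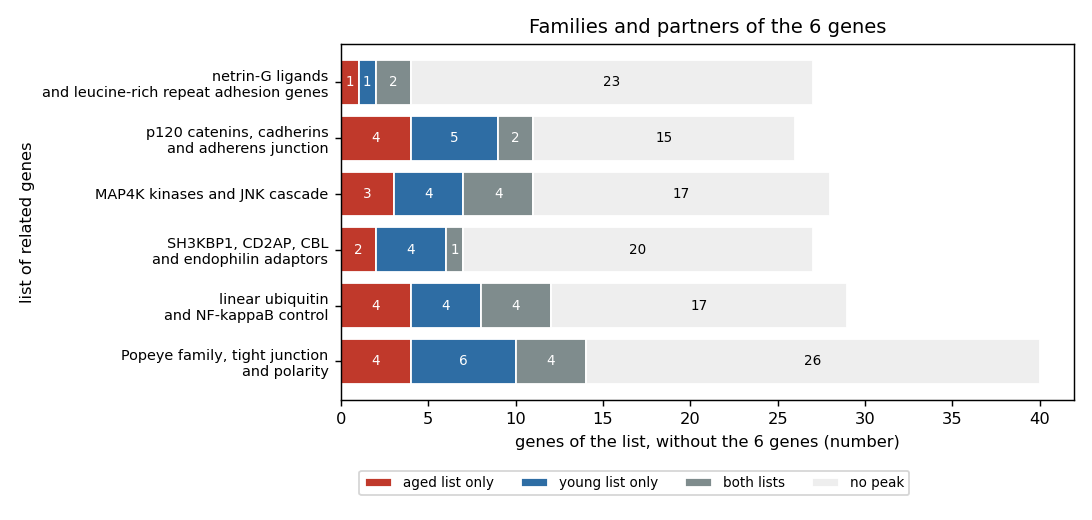
Number of gene names with a peak in the aged list only (red), the young list only (blue), both lists (grey) or neither (pale) for each list of relatives and partners, the 6 genes left out. In the list set beside BVES, the names without a peak include POPDC1, another name of BVES, and ARHGEF25 and GEFT, which name the same gene. In each list at least 15 genes had no peak, and genes of the aged list only numbered 1 to 4.

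Of 27 genes related to LRRC4C, the netrin-G ligands, their netrin-G partners and other leucine-rich repeat adhesion genes, 4 had a peak. The paralogues LRRC4 and LRRC4B and the netrin-G genes NTNG1 and NTNG2 had none. FLRT2, an adhesion gene of the same repeat class, had aged peaks of 3.00 and 2.45 and a young peak of 2.00, and LRFN3 had 2.17 in the aged and 1.87 in the young list. LRFN1 was in the aged list only (1.64) and FLRT3 in the young list only (1.62).

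Of 26 relatives and partners of CTNND2 at adherens junctions, 11 had a peak, 4 in the aged list only, 5 in the young list only and 2 in both. The p120 family was divided: CTNND1, the p120 catenin itself, had young peaks of 2.37 and 2.33 and no aged peak, whereas ARVCF (1.50) and PKP4 (1.64), named here as the nearest relatives after their values were seen, were in the aged list only. AFDN, the actin-binding scaffold of nectins, had the highest aged fold of these relatives, 4.50, against 2.37 in the young list, both labelled exon. By log10 p the order was the reverse, with -3.37 in the aged and -11.7 in the young list. NECTIN3, a junctional adhesion gene, was in the aged list only (2.80), and PKP3 (2.40) and the alpha-catenin gene CTNNA1 (2.00) were in the young list only. CDH2, which encodes N-cadherin, had 2.07 in the aged and 1.63 in the young list.

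Of 28 relatives and partners of TNIK among the MAP4K kinases and the JNK cascade, 11 had a peak, 3 in the aged list only, 4 in the young list only and 4 in both. MAP4K4, a kinase of the same subfamily, had aged peaks of 2.43 and 1.70 and a young peak of 1.50, while the other close relative, MINK1, had none. The JNK1 gene MAPK8 had 2.45 in the aged and 2.06 in the young list. RAP2C, a gene of the small GTPases that bind TNIK, had 2.20 in the aged list and 2.40 and 2.33 in the young list. The scaffold genes MAPK8IP3 (2.43) and MAPK8IP1 (1.89) and the kinase gene MAP4K2 (2.08) were in the young list only.

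Of 27 adaptor and endocytosis genes set beside SH3KBP1, 7 had a peak. Of these, 2 were in the aged list only, 4 in the young list only and 1 in both. The SH3KBP1 paralogue CD2AP and the ubiquitin ligase genes CBL and CBLB had none. SH3BP4, an endocytic adaptor gene, was in the aged list only (2.83), and GRB2, which encodes an adaptor of receptor kinases, had 2.40 in the aged and 1.67 in the young list. The clathrin adaptor gene DAB2 (2.21), the phosphoinositide phosphatase gene SYNJ1 (2.00) and the endophilin genes SH3GLB1 (1.88) and SH3GL3 (1.70) were in the young list only.

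Of 29 genes of linear ubiquitin and NF-kappaB control set beside OTULIN, 12 had a peak. Of these, 4 were in the aged list only, 4 in the young list only and 4 in both. RNF31, the catalytic subunit of the ligase that builds the chains OTULIN removes, had 1.52 in the aged list, with an adjusted p of 0.121, and 1.61 in the young list. With an adjusted p of at most 0.01 that aged peak was lost, and the counts were 4, 5 and 3. The partners of RNF31, RBCK1 and SHARPIN, and the deubiquitinase gene CYLD had no peak. The deubiquitinase gene USP9X had aged peaks of 2.28 and 1.65 and a young peak of 4.17. BIRC2 had 1.64 in the aged and 2.50 in the young list, and the related ubiquitin ligase gene BIRC3 was in the aged list only (2.00). OTUD7B (3.40 and 1.87), TAB3 (2.25) and the NF-kappaB inhibitor gene NFKBIA (2.00) were in the young list only.

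Of 40 gene names of the Popeye family, tight junctions and polarity complexes set beside BVES, 14 had a peak. Of these, 4 were in the aged list only, 6 in the young list only and 4 in both. The names include POPDC1, another name of BVES, and both ARHGEF25 and GEFT, which name the same gene. These names were counted as having no peak. The other Popeye genes, POPDC2 and POPDC3, had none. Genes of the PAR polarity complex were found at either age: PARD3B (3.00) and the atypical protein kinase C gene PRKCZ (3.00 and 1.74) in the aged list only, PARD6A (3.43) in the young list only, and PARD3 with 2.73 and 1.76 in the aged list and 4.93 and 2.57 in the young list. The claudin gene CLDN3 had a peak labelled stop codon at both ages, with a fold of 3.71 in the aged and 1.61 in the young list. Its log10 p had the reverse order, -22 in the aged and -35.2 in the young list. JAM3, a junctional adhesion gene, had 2 peaks in the young list only (2.81 and 1.53).

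The deposited annotation joined some of the 6 genes by shared terms. LRRC4C, CTNND2 and TNIK carried the term glutamatergic synapse, and of the 112 other genes with a peak and this term 33 (29.5%) were in the aged list only and 47 (42%) in the young list only. The name Wnt signaling pathway joined CTNND2, which carried it as a pathway, with TNIK and OTULIN, which carried it as a term only. Under that name, pathway and term together, the numbers were 26 of 95 (27.4%) and 38 of 95. SH3KBP1 and BVES shared regulation of cell shape, with 13 of 43 other genes in the aged list only (30.2%) and 14 in the young list only (32.6%). TNIK and SH3KBP1 shared cytoskeleton, with 45 of 133 other genes in the aged list only (33.8%) and 49 in the young list only (36.8%). CTNND2 and OTULIN shared regulation of canonical Wnt signaling pathway, a term with 4 other genes, 3 in the aged list only and 1 in the young list only. CTNND2 and SH3KBP1 shared neuron projection, with 21 of 80 other genes in the aged list only (26.25%) and 36 in the young list only (45.0%). TNIK and SH3KBP1 also shared cytoskeleton organization, with 12 of 37 (32.4%) and 13 of 37 (35.1%). The shares over all genes were 26.9% and 41.3%. These terms were chosen after their values were seen, and wide terms such as cytoplasm, nucleus and plasma membrane are left out. In the pathway Cell adhesion molecules, to which LRRC4C belongs, 14 of 40 other genes were in the aged list only (35.0%), and in Endocytosis, to which SH3KBP1 belongs, 19 of 72 (26.4%).

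CTNND2 and LRRC4C are known best from neurons and BVES from heart and skeletal muscle, so markers of these tissues were looked up beside them. Of 15 neural and Schwann cell markers, NCAM1 had an aged peak (1.58), ELAVL3 a young one (2.29), and a LOC gene with the deposited symbol of GFAP, whose identity is uncertain, a young one (2.57). The other 12, among them SOX10 and S100B, had none. Of 10 heart and skeletal muscle markers, TNNT2 had an aged peak (1.50), and MYBPC3 (2.10), DMD (1.86) and a LOC gene with the deposited symbol of MYH6 (3.00), likewise uncertain, had young peaks. A missing peak does not show that a transcript was absent, and the part of these cell types in the 6 peaks was not tested.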

How the data were processed

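Ovarian RNA was isolated with Trizol and made into libraries with a kit that keeps strand, per the labels' protocols. The submitters' processing notes name ChIPseeker, a peak annotator, and DESeq2, without a stated role. No source used here names the aligner, the peak caller or the genome build. Each peak has a p-value, plain and adjusted, and a fold enrichment (a linear ratio), all computed by the authors, per the file headers. The deposited log10 p was used as a score, and the deposited width, in bases, leaves out part of the span of some peaks. The deposited lists held no peak with a fold under 1.5 or a p-value above 0.049.

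Peaks counted as overlapping where their genomic spans shared 1 base or more on the same strand, including bases not counted in the width. Genes were matched by name, or by deposited symbol where the row's own name was no other listed gene. Starts were shifted by 1 base. Chromosome names, gene order, gene lengths and distances to gene ends came from a table of assembly ARS-UI_Ramb_v3.0, matched by gene identifier for 99.5% of aged peaks, and its coordinates are not printed. Genome sequence was not used here, so no sequence of a peak is given.

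The 6 genes and the lists of relatives and markers were chosen with earlier results of these data known. Named relatives were those with up to the 6 highest folds of each list, in either peak list, and, chosen after their values were seen, the closest family members and RNF31. Shares have Wilson 95% intervals, which cover counting error only, and no p-value was computed. Alternatives were cuts on fold (the median) and on adjusted p (0.01), lists of equal length, other rules of overlap, rank by p-value and genomic span. The overlap code was tested on simulated data, in which 100% of 300 shifted peaks were called as planted. The tools were pandas 2.3.3 on Python 3.11.15, with scipy 1.17.1, numpy 2.4.6 and, for figures, matplotlib 3.10.9.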

Additional observations from a re-analysis of the deposited data

How the results depend on the processing

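No paired analysis was possible because each age had 1 peak list. All 6 genes kept an aged peak and had no young one when folds under the joint median of 2.00 were left out. The same held with an adjusted p of at most 0.01, and with any young peak within 10 kb counted. The cuts on fold and adjusted p could not come out otherwise, so nothing is read from them. All 6 peaks had a fold of at least 4.67 and an adjusted p of at most 0.00832, and a stricter cut adds no young peak. The share of genes in the aged list only, 26.9%, was 26.1% at the median fold, 25.4% at the stricter adjusted p and 32.8% with lists of equal length. The share of aged peaks without an overlapping young peak, 59.0%, was 71.0% with 50% of both peaks required. It was 52.8% with a gap of up to 500 bases allowed. With peaks longer in span than in width left out of both lists, it was 59.9%. For the 31 strong peaks it was 54.8%, a setting chosen after seeing the data. The strong peaks include those of the 6 genes by choice, so nothing is read from that value. Ranked by p-value and not by fold, LRRC4C lay within the leading 24.3% of the aged list, BVES 25.7%, OTULIN 37.9%, TNIK 39.3%, CTNND2 65.7% and SH3KBP1 87.2%. The SH3KBP1 peak measured 2972 bases by span.

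At the median fold, the relatives with a peak fell to 33, with 10 in the aged list only, 17 in the young list only and 6 in both. By partner gene, the counts in the aged list only, the young list only and both were 1, 0 and 1 for LRRC4C, 2, 3 and 1 for CTNND2, 1, 2 and 2 for TNIK, 2, 2 and 0 for SH3KBP1, 1, 4 and 1 for OTULIN, and 3, 6 and 1 for BVES. Fewer peaks enter this setting. With lists of equal length the LRRC4C relatives numbered 2, 0 and 1, and the other counts stayed within 1.5 times. Depth was not given, so how far it limits either list is unknown.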

Other observations

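Among the 20 strong aged peaks in genes with a young peak as well, the highest fold was that of N4BP3 (8.50), followed by ZNF142 (6.37) and POU2F2 (5.71), which encodes a transcription factor. In these genes the highest young fold was 1.91, 2.22 and 2.46, and an aged and a young peak overlapped in each. The chromatin genes SUV39H2 (5.12) and ATRX (5.00) and the detoxification gene GSTA1 (5.09) were among the 20. Their highest young folds were 3.00 for SUV39H2, 2.00 for ATRX and 1.74 for GSTA1. The strong aged peaks of SUV39H2 and ATRX overlapped a young peak. That of GSTA1 overlapped none, so its aged and young folds belong to different sites. These genes were picked after their values were seen.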
